A study of Mus musculus with 6 samples.

Results

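The Robo receptor genes, the Slit ligand genes and Msantd2, the neighbour of Robo3 and Robo4 on chromosome 9, were followed in RNA sequencing of mouse hippocampus. The 8 genes (Robo1 to Robo4, Slit1 to Slit3 and Msantd2) were taken by symbol from a count table of 24421 genes, all 8 were found, and all 8 passed the low-count filter, as did 14916 genes in all. Libraries came from hippocampus of 3 wild type mice and 3 Ctcf conditional knockout (cKO) mice, and the strain is given as C57/Bl for both genotypes. CTCF is a DNA-binding zinc finger factor of insulators and chromatin loop anchors. The labels give no Cre driver, age or dissection detail, so the cells in which Ctcf was deleted, and the share of the tissue they make up, are not known here. The set was chosen by gene symbol and by the measured difference in read counts between these cKO and wild type libraries, so their differences are given as a description and carry no test.

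Robo proteins are transmembrane receptors of the immunoglobulin superfamily, and Slits are large secreted proteins that bind them and repel growing axons. Robo1 and Robo2 are the main neuronal Slit receptors. Robo3 is a divergent family member that commissural axons need to cross the midline, and in mammals it binds Slits poorly and responds to NELL2 instead. Robo4 is a receptor of endothelial cells. Msantd2 encodes a protein with a SANT-like domain and was included for its position, not for a role in this pathway.

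The chromosome 9 genes lie close together in the GRCm38.p6 assembly, which is also called mm10. Robo4 (9, 37401902 to 37414023, plus strand) and Robo3 (9, 37416045 to 37433436, minus strand) point toward each other and are separated by 2021 bases at their 3′ ends. Msantd2 (9, 37487532 to 37526113, plus strand) begins 54.1 kb beyond the start of Robo3 and points away from it. No RefSeq gene overlaps any of these 3 intervals. The promoter windows of the 3 genes, 250 bases before to 50 bases after a RefSeq transcript start, are shown because Robo3 and Msantd2 were both higher in cKO while Robo4, at the other end of Robo3, was not. They are the RefSeq sequences at chr9:37433126-37433425 (minus strand), chr9:37489071-37489370 (plus strand) and chr9:37401722-37402021 (plus strand), read 5′ to 3′, with CpG dinucleotides in capitals.

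Robo3: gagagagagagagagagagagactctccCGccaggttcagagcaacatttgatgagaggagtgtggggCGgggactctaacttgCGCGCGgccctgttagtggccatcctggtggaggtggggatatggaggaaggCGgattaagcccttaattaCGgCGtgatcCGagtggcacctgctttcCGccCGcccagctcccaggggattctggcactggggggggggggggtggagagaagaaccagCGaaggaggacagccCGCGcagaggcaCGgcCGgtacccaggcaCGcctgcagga
Msantd2: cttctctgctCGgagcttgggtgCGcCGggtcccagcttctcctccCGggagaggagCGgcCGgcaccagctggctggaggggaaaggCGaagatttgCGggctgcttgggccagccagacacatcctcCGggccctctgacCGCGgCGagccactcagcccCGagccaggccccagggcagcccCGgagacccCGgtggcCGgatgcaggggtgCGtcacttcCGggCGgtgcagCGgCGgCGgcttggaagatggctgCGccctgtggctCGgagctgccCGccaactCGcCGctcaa
Robo4: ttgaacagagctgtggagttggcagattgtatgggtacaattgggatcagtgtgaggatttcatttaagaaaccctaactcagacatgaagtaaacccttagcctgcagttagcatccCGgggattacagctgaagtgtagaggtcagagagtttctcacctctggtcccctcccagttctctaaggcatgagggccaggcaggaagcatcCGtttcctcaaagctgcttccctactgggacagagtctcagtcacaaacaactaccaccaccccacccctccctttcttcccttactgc

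The Robo3 window held 17 CpG dinucleotides and the Msantd2 window 27, whereas the Robo4 window held 2, and the median of 32851 mouse windows was 7. Their GC contents were 63.3%, 72% and 50.3%, against a median of 52.7%. Windows for the other members were matched for Robo1, Robo2, Slit2 and Slit3. Slit3 had the most CpG dinucleotides (41), followed by Slit2 (30), and the 3 windows of Robo2 had 9, 5 and 17. 2 words from the centre of the CTCF motif, AGGGGGC and AGGTGGC, were searched on either strand. AGGGGGC was in the Slit2 window and in none of the other 8 member windows, and 10.6% of all windows held it. AGGTGGC was in no member window and in 6.15% of all windows. The words differ at 1 letter, so both cannot match at the same place. They were picked after a longer form of the motif with free positions had been searched in the same windows. That form had matched in the Robo1 window and not in the Slit2 window, so which member holds a match depends on the form searched, and in each case the search covered 300 bases only.

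**Figure D1:**
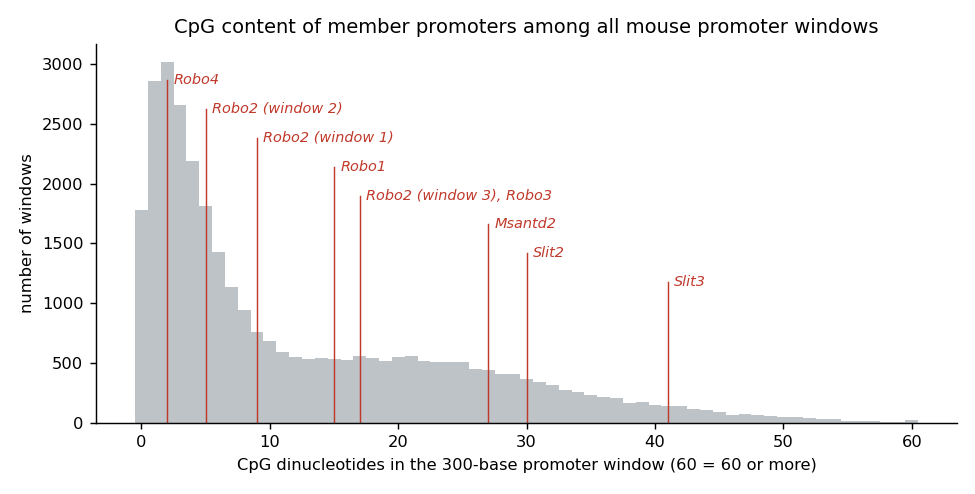
Number of promoter windows (y axis) by CpG dinucleotides per 300-base window (x axis), for 32851 RefSeq windows in grey, with the windows of 7 of the 8 genes marked by red lines. Robo4 stands at 2, Robo3 at 17, Msantd2 at 27 and Slit3 at 41.

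Total counts ranged from 14974750 to 23220455 per library. Ctcf, the targeted gene, fell from 66.6 ± 3.23 to 31.5 ± 6.42 CPM (counts scaled to a common library size, mean ± SD, n = 3 each), with a log2 fold change of -1.08 (SE 0.15) and an adjusted p of 0.0264 by edgeR's quasi-likelihood test. That adjusted p was above the threshold of 0.05 when wild type replicate 1 (0.0604), wild type replicate 3 (0.101) or cKO replicate 2 (0.124) was left out. Hippocampal neuron markers were present in every library (12 of 12 genes tested, summed level 613 to 885 CPM across wild type and 680.01 to 929.7 CPM across cKO). Wild type replicate 2 stood apart, with a summed level of 2498 CPM for 8 striatal markers against 549 and 1032 CPM in the other wild type libraries and 120.3 to 327 CPM in cKO. Each of the 8 was lower in every cKO library than in every wild type library, as for 12.4% of all genes tested. In cKO replicate 1, 10 choroid plexus markers summed to 613 CPM, against 3291 to 12425 CPM elsewhere.

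Robo3 had 43.1, 21.7 and 26.5 CPM across the wild type libraries and 289, 253.8 and 201 CPM across those of cKO, each given in the order of replicates 1, 2 and 3, as for the genes that follow. The lowest cKO library was far above the highest wild type library, so the groups did not overlap. On the log2 scale the difference was 3.03 (SE 0.27), an 8.15-fold higher level in cKO and rank 6 among the increases of all genes tested. With the libraries of wild type replicate 2 and cKO replicate 1 both left out, it was 2.71.

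Msantd2 had 13.6, 12.7 and 15.2 CPM in the wild type libraries and 20.9, 20.3 and 21.7 CPM in the cKO libraries. The groups did not overlap here either, and the spread within each was small, with a coefficient of variation of 9.18% in wild type and 3.4% in cKO. Its log2 fold change was 0.60 (SE 0.10), a 1.51-fold higher level.

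Robo4 had 11.4, 15.4 and 12.4 CPM across the wild type libraries and 13.6, 11.7 and 10.99 CPM across those of cKO. The groups overlapped, and the log2 fold change was -0.11 (SE 0.15). No source used here says whether the library kit kept strand, and reads past the 3′ end of 1 gene could be counted in the other. Endothelial cell markers (12 of 12 tested, none called, where edgeR called 1.51% of all genes, and each with counts) summed to 307 to 337 CPM across wild type and 292 to 336 CPM across cKO. The groups overlapped in this sum as they did for Robo4. Of the 12 log2 fold changes, 4 were positive and 8 negative. For Emcn (-0.56, SE 0.17) and Pecam1 (-0.23, SE 0.11) the groups did not overlap, with cKO lower, as for 12.4% of all genes tested. In bulk tissue, fewer cells of a type and less RNA per cell cannot be told apart.

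**Figure D2:**
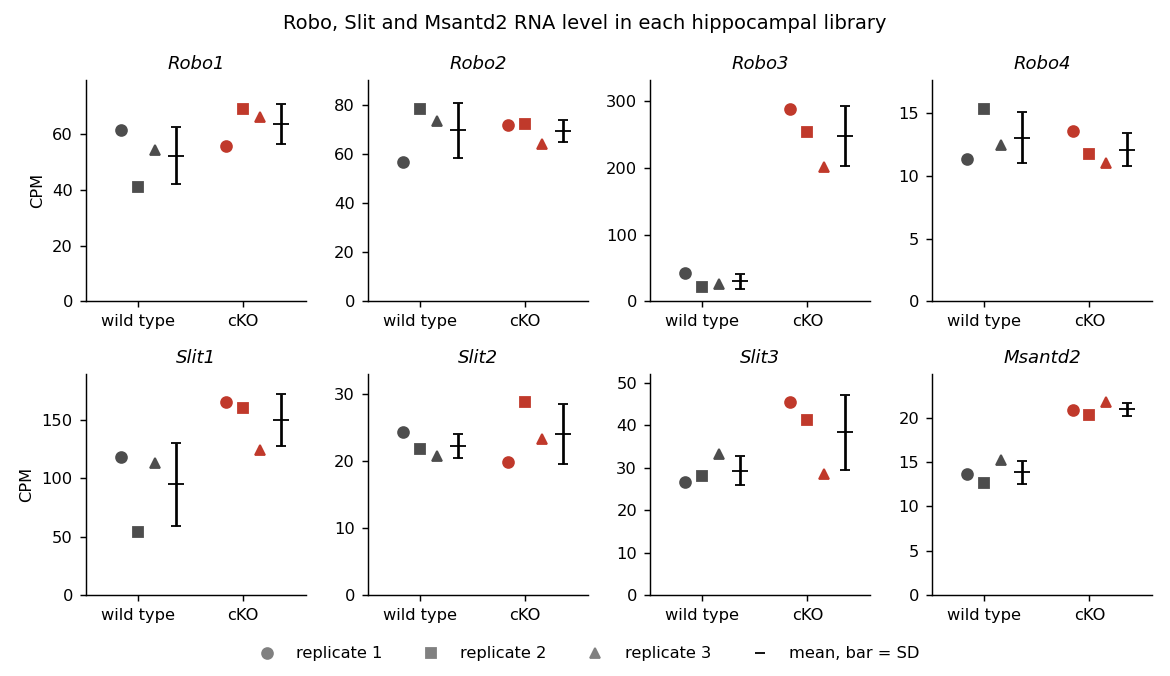
RNA level in CPM (y axis, from 0) of the 8 genes in each library, wild type in grey and cKO in red, with symbols for replicate numbers and the mean with SD in black beside each group. Robo3, Slit1 and Msantd2 have groups that do not overlap.

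Robo1 had 61.7, 41.2 and 54.3 CPM across the wild type libraries and 55.8, 69.3 and 66.1 CPM across those of cKO. The groups overlapped, wild type replicate 2 was the lowest library, and the log2 fold change of 0.28 (SE 0.15) was 0.14 without that library. Without wild type replicate 1 the log2 fold change was 0.42. Robo2 had 56.6, 78.3 and 73.4 CPM across the wild type libraries and 71.6, 72.2 and 64.03 CPM across those of cKO. Its cKO values lay inside the range of the wild type values, and the log2 fold change was -0.01 (SE 0.13). These genes are neighbours too, on chromosome 16, but at a distance of 844 kb, and each spans over a megabase of genome (1020 kb for Robo1, 1555 kb for Robo2, against 17.4 kb for Robo3).

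Among the ligands, Slit1 had 117.8, 53.99 and 112.8 CPM across the wild type libraries and 164.8, 159.9 and 124.3 CPM across those of cKO. The groups did not overlap, but cKO replicate 3 was only a little above 2 of the 3 wild type libraries, and wild type replicate 2 was low. The log2 fold change was 0.66 (SE 0.28), and 0.84 without wild type replicate 1. It was 0.38 without wild type replicate 2 and 0.30 without that library and cKO replicate 1. Markers of thalamus (8 of 8 tested, each with counts) were low in the same wild type library, at a summed level of 463 CPM against 1216 and 1228 CPM in the other wild type libraries and 961 to 1209 CPM in cKO. In cKO the thalamus markers did not follow Slit1, being highest in replicate 3. Hippocampal neuron markers were lowest in wild type replicate 2 as well, at 613 CPM against 849 and 885 CPM, and in cKO they summed to 929.7, 891 and 680.01 CPM, in the same order as Slit1. The part of either list in the Slit1 difference was not tested.

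Slit3 had 26.7, 28.1 and 33.3 CPM across the wild type libraries and 45.4, 41.3 and 28.5 CPM across those of cKO. Replicate 3 of cKO lay inside the wild type range and the other cKO libraries above it, with a log2 fold change of 0.38 (SE 0.18). It was 0.24 without cKO replicate 1, and 0.21 with wild type replicate 2 left out as well. Without cKO replicate 3 it was 0.56. Slit2 had 24.3, 21.8 and 20.7 CPM across the wild type libraries and 19.9, 28.7 and 23.3 CPM across those of cKO, so its groups overlapped at both ends, with a log2 fold change of 0.11 (SE 0.15). Both genes host a miR-218 precursor within their intervals, Mir218-1 in Slit2 and Mir218-2 in Slit3, and neither precursor had a count in any library. Nothing is read about mature miR-218 from these zeros.

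In the fit across all genes, 2 of the 8 members (Robo3 and Msantd2) passed adjusted p below 0.05, both higher in cKO, where 1.05% of the 14916 genes tested were called higher and 0.463% lower. For 3 members (Robo3, Slit1 and Msantd2) the groups did not overlap, all with cKO above wild type, as for 14.6% of all genes tested. The contrast had been used to choose the genes, so nothing is read from these shares. The authors' deposited table gave log2 fold changes of 3.02 for Robo3 and 0.59 for Msantd2, and of 0.65 for Slit1. Msantd2 lay close to the threshold: it passed in 6 of 14 alternative settings, and not when any 1 library was left out, while Robo3 passed in 13 of 14, the exception being without wild type replicate 3. The alternatives reuse the libraries whose contrast chose the genes, so these counts describe the processing and support nothing about the members.

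**Figure D3:**
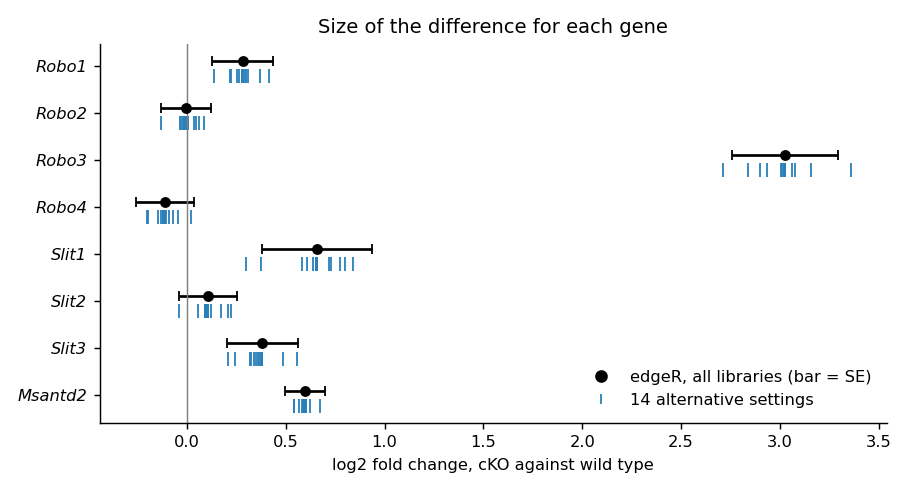
Log2 fold change of cKO against wild type (x axis) for each gene, as a black point with its SE for all 6 libraries and as blue ticks for 14 alternative settings. The ticks of Robo3 run from 2.71 to 3.36, and those of Robo2, Robo4 and Slit2 fall on both sides of 0.

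Levels of different genes were compared per kb of exon, which takes out gene length. In wild type, Slit1 was the highest at 16.0 ± 5.99 CPM per kb (SD, n = 3). Next came Slit3 (4.84 ± 0.57), Robo3 (4.45 ± 1.64), Msantd2 (4.23 ± 0.39), Robo2 (4.09 ± 0.67) and Robo1 (3.17 ± 0.63). From Slit3 to Robo2, neighbours in this order differed by less than their SDs, while Robo2 and Robo1 differed by a little more. Robo4 (2.46 ± 0.39) and Slit2 (0.88 ± 0.07) were the lowest. Slit1 stayed highest, and Robo4 and Slit2 lowest, when the longest transcript stood in for the union of exons, while the order of the middle genes depended on the length used. Among the 14806 genes that passed the low-count filter and had a length, the wild type level of Slit1 was at percentile 77.4 and that of Slit2 at percentile 15.3.

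In cKO the order was led by Robo3 (36.2 ± 6.49 CPM per kb), with Slit1 next (25.3 ± 3.73). Robo3 made up 40.6%, 24.1% and 28% of the summed Robo level per kb in the 3 wild type libraries, and 80.6%, 77.7% and 74.8% across those of cKO. The summed Robo level was 14.2 ± 1.21 CPM per kb in wild type and 46.4 ± 6.69 in cKO. Shares and sums here used the union of exons and depend on the length used. By longest transcript, wild type Robo3 averaged 6.09 CPM per kb, below Robo2 (8.08) and Robo1 (6.93). In cKO it was still the highest member, at 49.6 CPM per kb. Slit1 made up 62.4% to 78.8% of the summed Slit level in wild type and 77.1% to 78.9% in cKO, so the makeup of the ligands overlapped between genotypes.

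**Figure D4:**
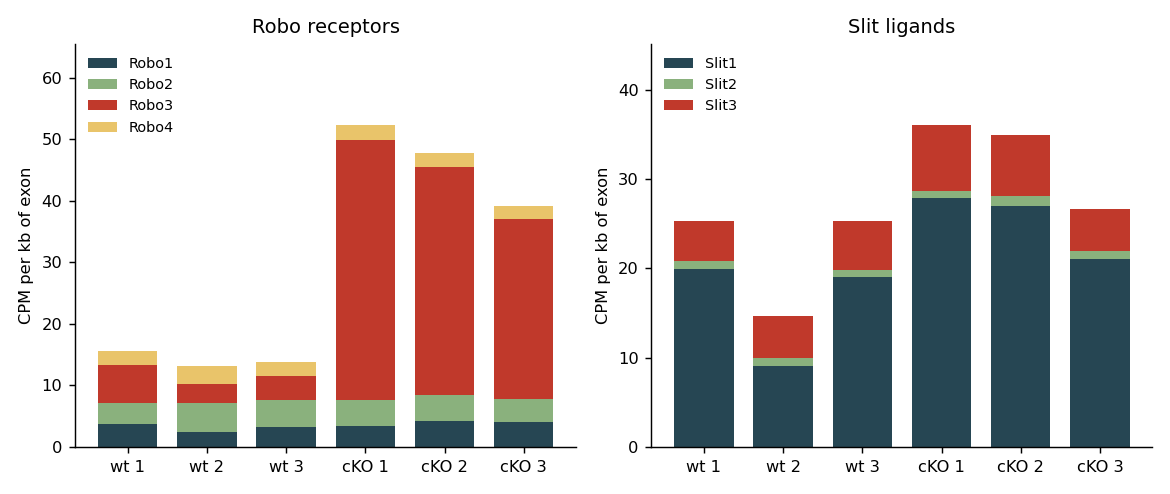
CPM per kb of exon (y axis, from 0) stacked by gene in each library, for the 4 Robo receptors on the left and the 3 Slit ligands on the right. Robo3 takes 24.1% to 40.6% of the Robo bar in wild type and 74.8% to 80.6% in cKO, and Slit1 is the largest part of every Slit bar. Lengths are unions of exons, and the shares depend on the length used.

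Variation between libraries of 1 genotype was uneven. It is a description too, since the genes were chosen with earlier results of these data known, and such results depend on this variation. The coefficient of variation in wild type was 37.4% for Slit1 and 36.9% for Robo3, at percentiles 91.2 and 91 of the genes that passed the low-count filter, against their median of 10.6%. It was 8.2% for Slit2 and 9.18% for Msantd2, below that median. In cKO the widest spread was that of Slit3 (23%) and the narrowest that of Msantd2 (3.4%, percentile 11.1).

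Genes near Robo3 were examined for the same contrast. Within 500 kb of it, leaving out Robo4 and Msantd2, 20 genes were in the table and 11 were tested, and the other 9, of which 8 are olfactory receptor genes, had at most 1 count in the 6 libraries. By edgeR none of the 11 was called, nor by DESeq2 or limma-voom, and 1 was lower at an unadjusted p below 0.05. Over all genes, edgeR called 1.51% of those tested and DESeq2 5.84%, so no result is read from 0 calls among 11 genes. The 11 genes had a median log2 fold change of -0.05, with 5 positive and 6 negative, beside a median of -0.004 over all genes tested. The nearest tested genes on the Robo4 side were Hepacam, a cell adhesion gene of glia (29.5 kb away, log2 fold change -0.14, SE 0.06), Ccdc15 (0.46, SE 0.31) and Slc37a2, a sugar phosphate transporter gene (-0.63, SE 0.30). Beyond Msantd2 they were Esam, an endothelial adhesion gene (-0.05, SE 0.09), Vsig2 (0.06, SE 0.15) and Nrgn, the neuronal calmodulin-binding protein neurogranin (0.18, SE 0.24). Tmem218 was the gene at the unadjusted threshold, with 16.8 ± 1.06 CPM (wild type) against 13.5 ± 0.62 CPM (cKO), and its adjusted p by edgeR was 0.147. Around all 8 members together, 42 tested neighbours held no call by any of these tools, with 4 higher and 3 lower at an unadjusted p below 0.05, where 19.9% of all genes were.

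**Figure D5:**
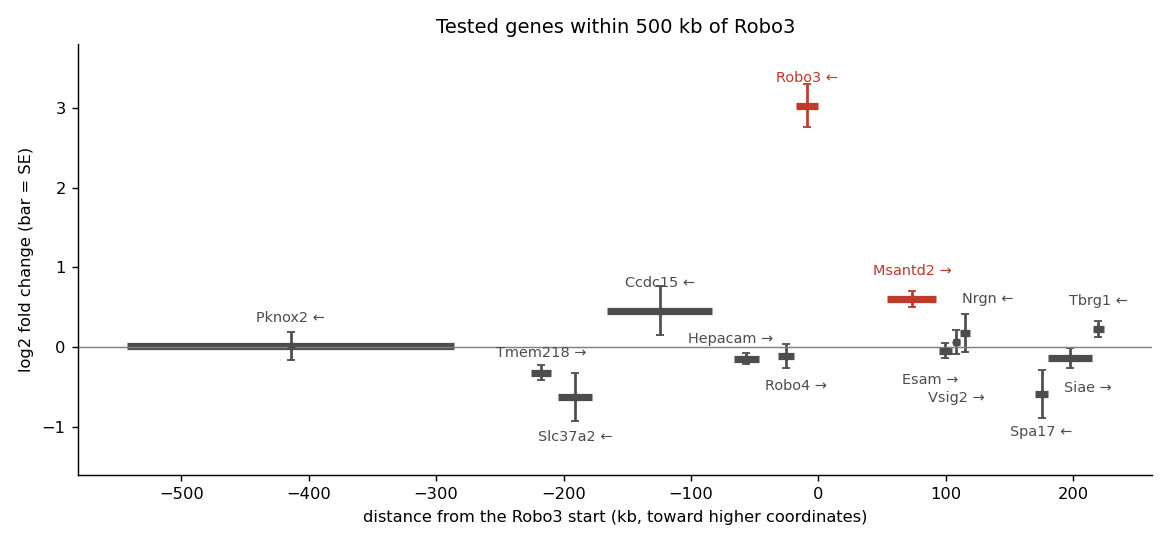
Log2 fold change (y axis, bars are SE) of the tested genes within 500 kb of Robo3, drawn as bars along their intervals at their distance from the Robo3 start (x axis, kb), with arrows for strand. Robo3 (3.03) and Msantd2 (0.60), in red, are the called genes, and Robo4 (-0.11) and the 11 other genes lie between -0.63 and 0.46.

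Other genes of the pathway were taken by known role as 3 lists. This was done with earlier results of these data known, so their calls and adjusted p-values are a description. No effect of a listed gene on Robo level was tested. The lists held 66 genes in all, and every one was tested. Of these, 0 were called higher and 1 lower by edgeR, where 1.51% of all genes tested were called in either direction. Their median log2 fold change was 0.01, with 34 positive and 32 negative. At an unadjusted p below 0.05, 5 were higher and 6 lower, or 16.7% of the 66 genes against 19.9% of all genes tested. DESeq2 called more genes throughout, 5.84% of all 14907 to which it gave an adjusted p (3.44% higher and 2.4% lower), and its calls below are to be read against those shares.

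Co-receptors and other extracellular partners numbered 21, with no call by edgeR and a median log2 fold change of -0.03. NELL2 is the Robo3 ligand in mammals, and Nell2 had 666, 505 and 675 CPM across the wild type libraries and 669.9, 666 and 537 CPM across those of cKO (log2 fold change 0.02, SE 0.14). Dcc, the netrin receptor with which Robo3 forms a complex, had a log2 fold change of 0.09 (SE 0.10). The smallest p-values belonged to Flrt3, a Robo1 co-receptor of thalamocortical axons (-0.55, SE 0.14, adjusted p = 0.104), Unc5d, a netrin receptor gene (0.59, SE 0.19, adjusted p = 0.159), and Unc5b, another (-0.53, SE 0.20, adjusted p = 0.215), by edgeR. DESeq2 called Flrt3 lower and no other gene of this list.

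The 24 intracellular effectors had no call by edgeR and a median log2 fold change of 0.05. Myo9b, an unconventional myosin that Robo1 inhibits, had 75.5 ± 5.01 CPM (wild type) against 93.9 ± 3.94 CPM (cKO). Its log2 fold change was 0.31, with an adjusted p of 0.0942 by edgeR, and DESeq2 called it higher. Usp33, a deubiquitinase that binds Robo1, and Sos1, a Rac exchange factor that Robo recruits in flies, had log2 fold changes of 0.24 (SE 0.07) and 0.32 (SE 0.11). The Slit-Robo GTPase-activating genes Srgap1, Srgap2 and Srgap3 had log2 fold changes of -0.28, 0.09 and 0.16.

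In the 21 regulators of Robo transcripts or proteins, 1 gene was called. Islr2, also called Linx, a leucine-rich repeat membrane protein of growing axons, fell in cKO, where it averaged 67.3 ± 11.3 CPM against 109.5 ± 4.17 CPM among controls. The log2 fold change was -0.71 (SE 0.13), with an adjusted p of 0.0481 by edgeR. Its groups did not overlap, with 105 to 113 CPM across wild type and 54.3 to 74.9 CPM across cKO. That adjusted p was close to the threshold, ranged from 7.57e-05 to 0.177 over 14 alternatives and passed in 6 of them, and it missed the threshold when any 1 library was left out. Rabggta, a Rab prenyltransferase subunit tied to Robo1 delivery in chick, had -0.46 (adjusted p = 0.0501 by edgeR), and Isl1, a transcription factor gene also expressed by striatal neurons, -2.06 (adjusted p = 0.0506 by edgeR). In wild type replicate 2, where striatal markers were highest, Isl1 was highest too, at 5.61 CPM against 2.65 and 4.30 CPM in the others, and the part of striatal tissue in its difference was not tested. DESeq2 called all 3 of these genes lower, where it called 2.4% of all genes lower. Upf2, of the nonsense-mediated decay machinery that limits a Robo3 isoform, and Ndfip1, an adaptor for Robo ubiquitination, had log2 fold changes of -0.06 and 0.02.

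Levels of Robo3 were set beside markers of a neighbouring region. Medial habenula markers (8 of 8 tested, none called and each with counts) summed to 148.8, 52.2 and 44.2 CPM across the wild type libraries and 67.5, 76.5 and 107.9 CPM across those of cKO. Those groups overlapped. In wild type the library highest in these markers (replicate 1) was also highest in Robo3, and in cKO the library lowest in them (replicate 1) was highest in Robo3. Their part in the Robo3 difference was not tested. Mural and meningeal markers (12 of 12 tested, none called) summed to 451 to 646 CPM across wild type and 287 to 459 CPM across cKO. As edgeR called 1.51% of all genes tested, no result is read from the lack of calls in lists this short. Striatal and choroid plexus markers, none called by edgeR (DESeq2 called all 8 striatal markers lower), had negative log2 fold changes in all 8 and all 10 genes, with medians of -2.79 and -1.21. Among the 12 hippocampal neuron markers, 9 log2 fold changes were positive and 3 negative. Wfs1 was the 1 gene called by edgeR (-1.16, adjusted p = 0.00775). DESeq2 called Wfs1 lower too, and called Fibcd1 and Spink8 higher (log2 fold changes of 1.17 and 1.36 by edgeR), where it called 3.44% of all genes higher.

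The genes whose profile over the 6 libraries was most like that of Robo3 were found by the root mean square difference of log2 CPM after each gene was centred on its mean. The 5 nearest were 1700016L04Rik (0.18), 4732456N10Rik (0.19), Nmbr (0.43), 4930579G24Rik (0.47) and Fchsd1 (0.48). The first pair had 0 to 2 counts per wild type library and 15 to 20 per cKO library. They passed the low-count filter through cKO alone, and their closeness to Robo3 depends on the prior count of 2 added before the log. The profile compared also holds the contrast known when Robo3 was chosen, so the list is a description. Nmbr, the neuromedin B receptor gene, had 1.05 ± 0.24 and 5.78 ± 1.77 CPM, and Fchsd1, an F-BAR domain gene, 9.52 ± 0.31 and 47.3 ± 3.15 CPM. None of the 5 is on chromosome 9. On chromosome 10, 1700016L04Rik (ending at 14759019) and Nmbr (starting at 14759356) lie close together, so they are not separate loci.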

How the data were processed

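The authors deposited whole-number read counts, 1 row per gene, for 3 wild type and 3 cKO libraries, per the file headers, with their log2 fold change and adjusted p-value. Build mm10, TopHat2 2.0.10, HTSeq 0.6.1p1, DESeq2 1.6.3 and cutadapt are named in the submitters' processing notes, without order or settings. The 6 columns of normalised counts were not used. Samples were grouped by title.

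Counts were tested with edgeR 4.0.16 (R 4.3.3) by its quasi-likelihood test, with a minimum count of 10 in its filter, TMM normalisation and Benjamini-Hochberg adjustment over all tested genes at 0.05. CPM are counts per TMM-scaled library size. SEs were the absolute log2 fold change over the square root of F. Likeness used a prior count of 2. Exon lengths and strands came from GENCODE M21, and positions, matched for 99.5% of rows, and promoter sequences from RefSeq GRCm38.p6. Members and lists were chosen with earlier results of these data known. Named genes were the members, Ctcf, called genes or the 3 smallest p-values of each list, the nearest neighbours of Robo3 and its 5 most similar genes, and a few others named for their role after values were seen. Alternatives used DESeq2 1.42.0 and limma 3.58.1, other scalings and filters, the replicate number as a block, and left-out libraries. On simulated data for cKO against wild type (14785 to 14797 genes, 5 data sets), 33.6% of 1.5-fold, 89.2% of 2-fold, 100% of 4-fold and 99.6% of 8-fold changes were recovered, and 9.54% of calls were false, above the nominal rate. The smallest chi-square per degree of freedom between libraries was 10.7.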

Additional observations from a re-analysis of the deposited data

How the results depend on the processing

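The sign of the log2 fold change was the same in all 14 alternatives for Robo1, Robo3, Slit1, Slit3 and Msantd2, and differed in at least 1 for Robo2 (-0.13 to 0.09), Robo4 (-0.20 to 0.02) and Slit2 (-0.04 to 0.22). Leaving out 1 library at a time gave 0 to 1 members called higher, 0 pathway genes called lower, 11 to 97 genes called higher and 1 to 50 called lower over all genes, and a Ctcf log2 fold change of -1.19 to -0.92 (adjusted p 0.0272 to 0.124), with fewer samples in each fit. Without wild type replicate 2 and cKO replicate 1, 1 member (Robo3) was called higher, 0 pathway genes lower, and 75 genes higher and 36 lower over all. With DESeq2, 1 pathway gene was called higher and 4 lower, and 513 genes higher and 358 lower over all. Pathway genes called lower were 3 with no low-count filter and 2 with a mean CPM of at least 1. The causes of these differences between tools and filters were not tested. No neighbour within 250, 500 or 1000 kb of Robo3 was called in any setting that was run. The main fit called 1.51% of all genes tested, so no result is read from this lack of calls.

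Same-numbered libraries of the 2 genotypes had correlations of 0.219, 0.425 and 0.0788 in their deviations from the group means, so the numbers were not taken to pair the samples. With the replicate number as a block, 1 member was called higher (Robo3, log2 fold change 3.06), while Msantd2, at a log2 fold change of 0.60, no longer passed the threshold, and 107 genes were higher and 78 lower over all. Not every library correlated best with its own number. Depth limited none of the members, each with at least 172 counts in every library, whereas 3 libraries per genotype limit the precision of small differences.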

Other observations

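Among the cKO libraries, replicate 1 had the least Ctcf RNA (24.1 CPM, against 34.5 and 35.8 CPM in replicates 2 and 3). Robo3, Robo4, Slit1 and Slit3 were highest in that library and lowest in replicate 3, whereas Robo1 and Slit2 were lowest in it, at 55.8 and 19.9 CPM, and Robo2 and Msantd2 followed neither order. Hippocampal neuron markers were also highest in replicate 1 and lowest in replicate 3, choroid plexus markers were lowest in replicate 1, and with 3 libraries no order was tested.

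Near Slit1, Lcor, a transcriptional corepressor gene that lies 1.66 kb away, averaged 2.56 CPM (wild type) and 4.19 CPM (cKO), a log2 fold change of 0.71 with an adjusted p of 0.137 by edgeR, and was named after its value was seen.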
